A study of Mus musculus with 31 samples.

Results

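Liver and epididymal adipose tissue of mice kept in normoxia (NO) were compared on expression arrays, to describe how the tissues differed without intermittent hypoxia. The arrays were chosen by the tissue and the exposure given for each sample. They were 8 arrays of NO liver and 8 arrays of NO epididymal adipose tissue, 16 of the 31 arrays of the study, and the arrays of the hypoxic mice were not used. The mice of both groups were C57BL/6JRj males aged 16 weeks, fed ad libitum, and NO meant 14 days of air-to-air cycles at 21% FiO2 for 8 h per day during sleep, with the gas flow noise of the hypoxic exposure. Each array carried RNA of 1 whole tissue, so every level below is an average over all of its cell types, and fewer cells of a type and less RNA per cell cannot be told apart.

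The liver makes most proteins of blood plasma, clears ammonia as urea, turns cholesterol into bile acids, keeps blood glucose up between meals and chemically modifies foreign compounds. White adipose tissue stores triglyceride in a single large droplet per adipocyte, takes up fatty acids through lipoprotein lipase, releases them by lipolysis and secretes hormones such as leptin and adiponectin. Adipocytes lie in a bed of matrix, vessels, progenitors, immune cells and a mesothelial covering, and the epididymal pad is attached to the epididymis. Hepatocytes, in turn, make up most of the mass of the liver beside its sinusoidal endothelium, Kupffer cells (resident macrophages), stellate cells and bile ducts.

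Levels are log2 intensities after background correction and quantile normalization, and every difference is liver minus adipose tissue on that log2 scale, from limma, with its standard error (SE) and a Benjamini-Hochberg adjusted p. A probe was called detected where its detection p was under 0.01. The highest value on any array was 15.09, and the lowest value of a detected probe lay between 5.18 and 6.49, depending on the array. Where none of a tissue's arrays detected a probe, its difference is given as a bound, "at least N-fold": the mean of the brighter tissue over, for each array of the dimmer tissue, the higher of the lowest detected signal and the probe's own signal. Where only some arrays of the dimmer tissue detected a probe, the fitted difference is given, and it rests in part on undetected values. A level belongs to its own probe and is not set against that of another gene. Detected probes numbered 8359 to 9158 on the liver arrays and 10261 to 11932 on the adipose arrays, with medians of 8603.5 and 11151 (two-sided exact permutation test, p = 0.0001554, the smallest that the splits of 16 arrays allow). All 8 liver arrays lay below all 8 adipose arrays in this count.

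Arrays of the same tissue correlated at 0.962 to 0.9918, and a liver and an adipose array at 0.779 to 0.807. These correlations are over all 25697 probes, of which 11390 were detected on no array. The liver arrays shared 1 chip, and the adipose arrays lay on 2 other chips with 3 and 5 arrays, so that chip and tissue cannot be told apart. Between the adipose chips, 0 of 8373 genes (0%) differed at an adjusted p under 0.05 by limma and 1364 did at an unadjusted p under 0.05. That is a larger share than the 0.05 that chance alone would give. The lowest adjusted p was 0.0582, for Krt8 (2.87, chip with 5 minus chip with 3), Mid1ip1 (1.77) and Aldh1a1 (1.54). With so few arrays, the lack of calls does not show that the chips were alike. The median absolute difference between these chips was 0.22 over the 8373 genes. Between liver and adipose tissue it was 0.77 over the 7388 genes in both fits. The adipose arrays stood apart from one another in genes of the epididymis, a tissue next to the pad. NO adipose array 4 had Adam7, Wfdc10, Rnase9 and Eppin, made by the epididymal epithelium, at 12.05, 12.87, 9.62 and 11.11, while no other array of either tissue exceeded 5.40 for any of them. Of 19 epididymis and testis genes on the array, 9 were detected on NO adipose array 4, 1 to 5 on the other adipose arrays and 0 to 2 on the liver arrays. Prm1, a protamine of sperm, was detected on 6 adipose arrays, with levels up to 11.13, and on no liver array. NO liver array 2 was the only liver array on which Adipoq was detected, and 13 of 23 adipocyte genes were detected there, against 8 to 11 on the other livers. The summed linear signal of these 23 genes ran from 11100 to 14940 on the liver arrays and from 189700 to 245900 on the adipose arrays. Of 50 hepatocyte genes, all 50 were detected on each liver array and 9 to 16 on the adipose arrays, with summed signals of 614300 to 666100 on the liver arrays and 13200 to 18930 on the adipose arrays. Both sets hold only members of lists below that were called on these same arrays, the 23 lower and the 50 higher in liver. Their separation between the tissues thus follows from that choice, and only the spread among arrays of 1 tissue can be read from them. The part of epididymal, adipocyte or hepatocyte RNA from outside a tissue in the differences below was not tested. Leaving out NO adipose array 4 and NO liver array 2 together, a choice made after seeing the data, changed the call of 1 named gene, Lcn2, described below.

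**Figure D1:**
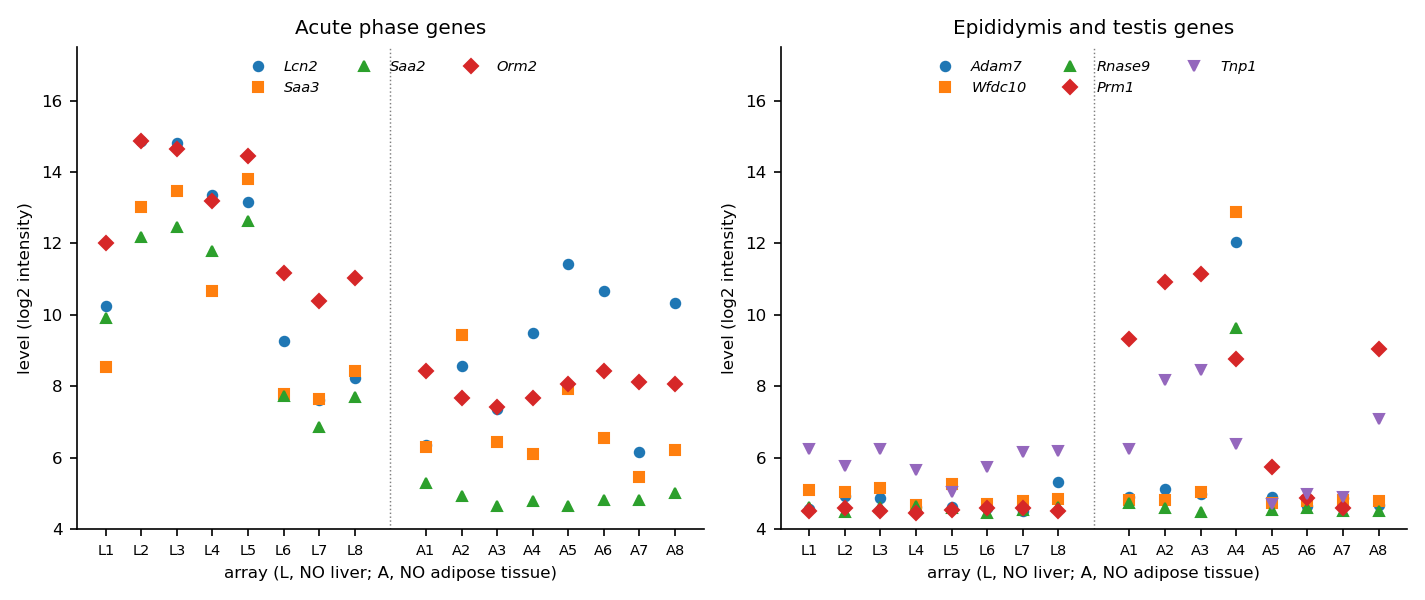
Levels (log2 intensity, vertical axis) of 4 acute phase genes (left) and 5 epididymis and testis genes (right) on each array (horizontal axis; L1 to L8 are NO liver, A1 to A8 NO adipose tissue), 1 marker per gene and array. Livers 2 to 5 held the highest Lcn2, Saa2 and Orm2 levels, and adipose array 4 alone held high Adam7, Wfdc10 and Rnase9.

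Of 7702 genes tested, 5740 (74.5%) differed between NO liver and NO adipose tissue. Among them 2395 (31.1% of all tested) were higher and 3345 (43.4%) were lower in liver. With limma's treat, which asks for a difference beyond 1 on the log2 scale, 2381 genes (30.9%) were called, 924 higher (12.0%) and 1457 lower (18.9%) in liver. For 3567 genes (46.3%) the 8 liver and the 8 adipose levels did not overlap. These shares are the background for every list below, since a gene picked at random was more likely than not to differ. The median difference over all genes was -0.17. In the authors' processed values, which were normalized within each tissue, that median was -1 and 766 genes were called higher and 6456 lower (10.6% of the calls higher, against 41.7% here). After centring those values on their median, a scaling chosen after seeing the data, the split was 3549 higher and 2324 lower (60.4% higher) and the median 0.15. Of the 53 gene lists, 18 had a median that changed sign under at least 1 scaling, and each is marked where it is described. The differences of the named genes that changed sign under a scaling ran from -1.59 (Cyp2s1) to 1.43 (F8).

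Alb, the gene of serum albumin (chr5:90460870-90476602, GRCm38.p6), had levels of 9.36, 9.85 and 10.42 in liver and 4.43, 4.51 and 4.64 in adipose tissue (lowest, median and highest of 8 arrays each). Its probe was detected on all 8 liver arrays and on no adipose array, and was at least 21.7-fold higher in liver (adjusted p = 3.04e-16). Adipoq, the gene of adiponectin (chr16:23146536-23157968), had levels of 4.63, 4.75 and 7.71 in liver and 14.49, 14.72 and 14.80 in adipose tissue. Its difference was -9.45 (SE 0.34, adjusted p = 1.59e-14) with NO liver array 2, the 1 liver on which it was detected, and without that array Adipoq was at least 316-fold higher in adipose tissue. Neither gene's groups overlapped, and the two-sided exact permutation test gave p = 0.000155 for each, the smallest it allows. The tissue labels thus matched their defining markers on every array.

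Promoters are shown for some genes whose levels separated the tissues. Liver genes are classically switched on through sites for HNF1, a homeodomain factor of hepatocytes, and adipocyte genes through sites for C/EBP factors and PPAR. The genes shown and the motif marked in each were picked by hand and are not typical. Most promoters of genes higher in liver held no HNF1 match, and most of genes lower in liver no C/EBP match, as given below. Sequences are from RefSeq on GRCm38.p6, 250 bases before to 50 after the gene's start, in the direction of the gene, with a motif match in capitals. Alb (chr5:90460620-90460919, + strand) and Fga, the fibrinogen alpha chain (chr3:83025903-83026202, + strand), have the HNF1 match in capitals. The Fga window also holds a C/EBP match with 1 mismatch, TTGAGCAA at bases 116 to 123, which is not in capitals. Lep, leptin (chr6:29059971-29060270, + strand), has a C/EBP match, and Aqp7, the glycerol channel of adipocytes (chr4:41048087-41048386, - strand), a match, on the opposite strand, to the direct repeat bound by HNF4A and PPAR. Adipoq (chr16:23146286-23146585, + strand) held none of these motifs in the window.
Alb: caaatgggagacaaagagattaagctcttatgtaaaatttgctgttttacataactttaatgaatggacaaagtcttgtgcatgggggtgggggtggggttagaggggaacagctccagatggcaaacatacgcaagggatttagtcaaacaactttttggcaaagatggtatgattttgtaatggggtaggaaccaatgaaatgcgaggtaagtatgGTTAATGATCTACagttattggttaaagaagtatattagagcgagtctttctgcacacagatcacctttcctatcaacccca
Fga: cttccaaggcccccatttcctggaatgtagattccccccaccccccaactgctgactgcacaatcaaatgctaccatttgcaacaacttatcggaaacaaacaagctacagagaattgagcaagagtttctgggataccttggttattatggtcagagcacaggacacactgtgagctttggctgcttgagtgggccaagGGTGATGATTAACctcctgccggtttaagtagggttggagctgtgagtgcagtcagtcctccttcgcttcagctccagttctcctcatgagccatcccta
Lep: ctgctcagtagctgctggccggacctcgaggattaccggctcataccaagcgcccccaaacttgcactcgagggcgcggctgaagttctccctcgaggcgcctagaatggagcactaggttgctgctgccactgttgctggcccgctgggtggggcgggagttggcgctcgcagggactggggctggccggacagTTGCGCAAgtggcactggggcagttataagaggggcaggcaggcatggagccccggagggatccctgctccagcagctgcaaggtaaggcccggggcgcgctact
Aqp7: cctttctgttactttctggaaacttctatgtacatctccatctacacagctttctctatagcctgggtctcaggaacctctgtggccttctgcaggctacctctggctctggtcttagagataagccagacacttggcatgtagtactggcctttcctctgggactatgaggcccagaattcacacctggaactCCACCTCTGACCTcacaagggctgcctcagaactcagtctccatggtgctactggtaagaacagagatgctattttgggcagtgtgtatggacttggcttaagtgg
Adipoq: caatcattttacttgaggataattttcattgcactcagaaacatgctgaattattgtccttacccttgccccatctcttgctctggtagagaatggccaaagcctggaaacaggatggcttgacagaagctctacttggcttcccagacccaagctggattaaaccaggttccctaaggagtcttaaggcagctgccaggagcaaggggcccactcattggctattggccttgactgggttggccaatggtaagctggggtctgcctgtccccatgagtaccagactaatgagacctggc

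The matches in capitals in Alb, Fga and Aqp7 each hold 2 mismatches, and that in Lep has none. The HNF1 match begins at base 219 of the Alb window and at base 201 of the Fga window, the C/EBP match at base 196 of the Lep window and the direct repeat at base 195 of the Aqp7 window. The HNF1 motif searched was GTTAAT, any base, then ATTAAC, with up to 2 mismatches on either strand. It was held by 5.34% of the 749 promoters of genes called higher in liver by treat, 0.539% of the 1113 of genes called lower, 1.11% of the 6307 of all tested genes and 1.38% of all 27025 promoters. Its left part alone, GTTAAT on either strand, which overlaps the full motif, was held by 9.61% of the liver-higher, 3.14% of the liver-lower, 4.31% of the tested and 7.2% of all promoters. The direct repeat AGGTCA, any base, then AGGTCA, with up to 2 mismatches on either strand, was held by 6.41% of the liver-higher, 2.52% of the liver-lower, 3.11% of the tested and 3.81% of all promoters. Both shares were highest among the liver-higher promoters. For the C/EBP palindrome TTGCGCAA with up to 1 mismatch on either strand the shares were 8.14% of the liver-higher, 7.1% of the liver-lower, 8.36% of the tested and 6.03% of all promoters, with little between them. For TTGCAAT on either strand, a partly overlapping form, they were 2.54%, 1.53%, 1.49% and 2.24% of the same sets, and for the TATA box TATAAA, on the gene's strand only, 7.74%, 5.84%, 5.09% and 8.88%. These are shares of letters in a short window and carry no test.

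The largest differences toward liver were plasma proteins and secreted carriers. Ambp, the precursor of alpha-1-microglobulin and bikunin, had levels of 14.52, 14.83 and 15.00 in liver and 4.52, 4.60 and 4.69 in adipose tissue and was at least 698-fold higher in liver (adjusted p = 1.32e-23). Hpx, hemopexin, which binds free haem, was at least 709-fold higher, Apoa2, an apolipoprotein of HDL, at least 683-fold, Ahsg, fetuin A, at least 678-fold, Azgp1, zinc-alpha-2-glycoprotein, at least 622-fold and Mug1, a protease-binding murinoglobulin, at least 498-fold. None of these was detected on an adipose array, and their liver levels ran from 13.79 to 15.09, up to the highest value of any array. Ttr, the carrier of thyroxine and of retinol-binding protein, was detected on 1 adipose array and differed by 9.88, and Kng1, kininogen, likewise by 9.77. Mup21, a major urinary protein, and Serpina1c, an antitrypsin, belong to families of near-identical copies, so that which copy was measured is uncertain. They were at least 590.2-fold and 475-fold higher in liver.

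Every one of the 22 hepatocyte plasma proteins tested was higher in liver, all 22 also by treat, with a median difference of 8.10 (7.65 with undetected members at their bound). The smallest differences among them belonged to Rbp4, the retinol carrier, which adipocytes also secrete, and to transferrin. Rbp4 had levels of 11.60, 12.12 and 12.82 in liver and 8.85, 9.89 and 10.75 in adipose tissue, a difference of 2.36 (SE 0.28, adjusted p = 4.26e-07). Its groups did not overlap. Of 15 genes of apolipoproteins and lipoprotein assembly, 14 were higher in liver (median 7.33, 6.77 with bounds). Apoa1, the main protein of HDL, was the largest difference of any gene detected on all 16 arrays, with levels of 14.46, 14.79 and 15.00 in liver and 5.31, 6.37 and 7.46 in adipose tissue (8.35, SE 0.23, adjusted p = 2.84e-16). Apoc3, an inhibitor of lipoprotein lipase, differed by 6.25, and Apoe, a ligand of lipoprotein receptors that macrophages and adipocytes also make, by 1.22. Pltp, the phospholipid transfer protein of plasma, was the 1 member that was lower in liver (-4.37, SE 0.31, adjusted p = 4.32e-10), at 4.76, 5.63 and 7.44 in liver and 9.43, 10.22 and 10.69 in adipose tissue.

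Coagulation genes were likewise mostly higher in liver. Of 17 coagulation genes 16 were higher in liver (median 7.36, 6.57 with bounds). Plg, plasminogen, was at least 371-fold and F2, prothrombin, at least 272-fold higher. Fga had levels of 14.57, 14.78 and 14.88 in liver and 4.53, 4.67 and 8.20 in adipose tissue (9.62, SE 0.40, adjusted p = 1.30e-13). The 1 adipose array on which it was detected was array 4, and without it Fga was at least 665-fold higher in liver. F8, the clotting factor that endothelium makes, differed by 1.43, which became -0.13 in the authors' processed values, and Pros1, protein S, also an endothelial product, had a difference of 0.13 (adjusted p = 0.417), with levels of 10.12, 10.48 and 10.97 in liver and 10.17, 10.39 and 10.63 in adipose tissue.

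The complement list ran in both directions. Of 19 complement genes 15 were higher in liver (median 6.45, 5.65 with bounds), and 3 were lower. C9, a pore-forming component, was at least 285-fold higher in liver and Mbl1, a mannose-binding lectin, at least 124-fold. Cfi, the factor I protease, differed by 8.41. The 3 genes that were lower, C1qa, C1qb and C1qc, encode the chains of C1q, a product of macrophages, and differed by -1.09, -1.43 and -1.54. C1qa levels were 7.12, 7.56 and 7.94 in liver and 8.15, 8.75 and 9.19 in adipose tissue, with no overlap, while the groups of C1qb and C1qc overlapped.

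All 14 acute phase genes tested were higher in liver, with a median of 4.18. Hamp, hepcidin, the hormone that limits iron uptake, was at least 373-fold and Apcs, serum amyloid P, at least 271-fold higher. Several members varied widely among the livers. Lcn2, lipocalin 2, which binds bacterial siderophores, had levels of 10.25, 14.86, 14.82, 13.35, 13.17, 9.27, 7.61 and 8.23 on liver arrays 1 to 8 and of 6.15, 9.03 and 11.42 in adipose tissue (lowest, median and highest). Its difference of 2.66 (SE 1.13) just passed, at an adjusted p of 0.0415. Leaving out liver array 2, 3, 4 or 5 or adipose array 1, 2, 3 or 7 brought it to 2.17, 2.17, 2.38, 2.41, 2.31, 2.62, 2.45 or 2.28, each with an adjusted p above 0.05. Livers 2 to 5 were also the 4 highest in Saa1, serum amyloid A1, and Orm2, an orosomucoid. Saa1 had levels of 6.90, 11.26 and 12.87 in liver and 4.68, 4.84 and 5.46 in adipose tissue, and Orm2 of 10.39, 12.60 and 14.88 in liver and 7.41, 8.06 and 8.43 in adipose tissue. Neither overlapped, although both belong to families of close copies. Hp, haptoglobin, and Serpina3n, an antichymotrypsin, which adipocytes also express, differed only by 0.70 and 0.64 (adjusted p = 3.01e-04 and 0.0159), the second not called against the 5 adipose arrays of 1 chip (adjusted p = 0.115).

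Transcription factors that define hepatocytes were high in liver too. Of 15 tested, 13 were higher in liver (median 4.34, 3.78 with bounds). Hnf4a, the nuclear receptor that maintains hepatocyte identity, had levels of 12.07, 12.34 and 12.62 in liver and 5.28, 5.86 and 8.01 in adipose tissue (5.99, SE 0.32, adjusted p = 6.18e-12), with detection on 6 adipose arrays. Foxa3, a forkhead factor, was at least 126-fold, Onecut2 at least 36.9-fold and Creb3l3, a membrane-bound factor of fasting, at least 36.2-fold higher. Nr1h4, the bile acid receptor FXR, differed by 5.67. The 2 members that were not called were the lipogenic factors Mlxipl (ChREBP), with levels of 10.35, 10.90 and 11.24 in liver and 9.91, 10.63 and 11.35 in adipose tissue, and Nr1h3 (LXR alpha), with 10.51, 10.74 and 11.13 in liver and 10.56, 10.95 and 11.38 in adipose tissue. The 95% confidence intervals of their differences were -0.13 to 0.67 and -0.44 to 0.11. In the authors' processed values both were called lower in liver (-0.69 and -1.09, adjusted p = 9.02e-04 and 4.71e-08). Nr1h3 was also called against the 3 adipose arrays of 1 chip (-0.44, adjusted p = 0.0192). In the authors' values centred on their median Mlxipl was called higher in liver (0.46, adjusted p = 0.0191).

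Bile acid genes were higher in liver for 17 of 18 (median 6.10, 5.66 with bounds). Cyp7a1, the rate-limiting enzyme of bile acid synthesis, had levels of 10.46, 11.41 and 11.93 in liver and 4.41, 4.48 and 4.70 in adipose tissue and was at least 60.1-fold higher (adjusted p = 3.35e-16). Cyp8b1, which sets the share of cholic acid, was at least 288-fold and Slc27a5, the bile acyl-CoA ligase, at least 229-fold higher. Of the urea cycle and amino acid breakdown 26 of 27 genes were higher in liver (median 5.65, 5.26 with bounds). Cps1, the entry enzyme of the urea cycle, had levels of 12.57, 12.90 and 13.14 in liver and 4.41, 4.61 and 4.70 in adipose tissue (at least 181-fold higher, adjusted p = 1.06e-21). Arg1, arginase, was detected on 1 adipose array and differed by 8.98, and Ass1, argininosuccinate synthase, on all 16 arrays and by 7.01. Mat1a, which makes S-adenosylmethionine, was at least 469-fold higher, and Gnmt, which consumes it, differed by 8.80. Gstz1, a step of tyrosine breakdown, was the 1 member that was lower in liver (-0.35, adjusted p = 0.00457), and became 0.47 in the authors' values centred on their median.

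Genes of glucose output differed by step. G6pc, glucose-6-phosphatase, which releases free glucose, had levels of 10.71, 13.29 and 14.30 in liver and 4.83, 5.24 and 6.09 in adipose tissue (7.51, SE 0.43, adjusted p = 1.80e-11), the livers spreading over more than 3 log2 units. Fbp1, fructose bisphosphatase, differed by 7.05. Pck1, whose enzyme serves gluconeogenesis in liver and glycerol synthesis in fat, had levels of 7.67, 9.07 and 10.02 in liver and 7.68, 9.56 and 10.26 in adipose tissue, a difference of -0.33 (95% confidence interval -1.07 to 0.40, adjusted p = 0.4). Pck1 was called lower in liver in the authors' processed values (-1.42, adjusted p = 9.77e-05). Against the 3 adipose arrays of 1 chip it was also called lower (-0.98, adjusted p = 0.0416). Pcx, pyruvate carboxylase, was the member called lower in liver here (-0.71, adjusted p = 1.02e-04). In all, 11 of 14 genes of gluconeogenesis and hepatic glucose handling were higher in liver (median 3.32, 3.31 with bounds).

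Of 27 cytochromes P450 of families 1 to 4, which oxidise drugs, steroids and fatty acids, 23 were higher and 3 lower in liver (median 6.82, 6.01 with bounds). The array held 37, and 16 of the 27 tested were detected on every liver and no adipose array. Cyp2c70 was at least 498-fold higher, Cyp2d9 differed by 9.00 and Cyp2f2 by 8.72, and the Cyp2c and Cyp2d genes have close copies. Cyp1b1, a P450 of stromal and mural cells, was at least 9.75-fold higher in adipose tissue, at 4.53, 4.96 and 6.01 in liver and 9.00, 9.65 and 10.41 in adipose tissue. Cyp4b1 was at least 3.32-fold and Cyp2s1 at least 1.18-fold higher in adipose tissue, Cyp2s1 with a difference of 0.06 in the authors' values centred on their median. Cyp2e1, the ethanol-oxidising P450, was the member that was not called: its levels were 13.88, 14.74 and 15.03 in liver and 14.73, 14.86 and 15.03 in adipose tissue, against a highest value of 15.09 on any array. Of 33 conjugating enzymes 23 were higher and 5 lower in liver (median 1.17). Ugt2b36, a glucuronosyltransferase with close copies, was at least 318-fold higher and Glyat, which joins glycine to acyl groups, differed by 7.70. Mgst2 was at least 12.2-fold higher in adipose tissue and Mgst3 differed by -4.04, both membrane-bound glutathione transferases.

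Cholesterol synthesis stood higher in liver along nearly the whole pathway, with 16 of 17 genes called higher, none lower and a median of 2.45. In the authors' processed values 10 were higher and 3 lower, and in those values centred on their median 17 were higher and 0 lower. The median ran from 0.70 to 2.49 over the scalings. Fdps, which makes farnesyl diphosphate, had levels of 12.50, 13.02 and 13.18 in liver and 9.17, 9.85 and 10.56 in adipose tissue (3.01, SE 0.19, adjusted p = 5.14e-11). Tm7sf2 and Dhcr7, reductases of the late steps, differed by 3.51 and 3.40, and Cyp51, the lanosterol demethylase, by 2.97. The groups of these 4 genes did not overlap. Hmgcs1, an early step, was the 1 member that was not called (-0.29, 95% confidence interval -0.65 to 0.07). Of 20 peroxisome enzymes 11 were higher and 4 lower in liver, with a median of 0.87 that ranged from -0.11 to 1.05 over the scalings. Uox, urate oxidase, and Hao1, glycolate oxidase, were at least 160.1-fold and 119-fold higher, while Gnpat, which starts ether lipid synthesis, and Ech1, an auxiliary oxidation enzyme, differed by -1.93 and -1.44.

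Ketone body genes ran in opposite directions by step, 3 of 5 higher and 2 lower in liver (median 1.15, -0.25 to 1.19 over the scalings). Bdh1, which makes hydroxybutyrate, had levels of 11.18, 11.57 and 11.87 in liver and 4.56, 5.19 and 6.34 in adipose tissue (6.32, SE 0.20, adjusted p = 1.33e-15). Oxct1, which tissues need to burn ketone bodies, had levels of 5.18, 6.55 and 7.04 in liver and 10.79, 11.30 and 11.48 in adipose tissue (-4.89, SE 0.25, adjusted p = 2.83e-12). It was detected on 4 liver arrays. Aacs, which feeds acetoacetate into lipid synthesis, differed by -1.99.

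Genes under male growth hormone secretion were high in liver too. All 11 genes of the list of major urinary proteins and male liver genes were higher in liver (median 7.69), among them Mup20 (9.56), a pheromone carrier, and Elovl3 (at least 26.1-fold), a fatty acid elongase. Of 11 genes of the growth hormone and IGF axis 4 were higher and 6 lower (median -0.94). Igf1, the growth factor made under growth hormone, had levels of 12.43, 13.02 and 13.20 in liver and 10.87, 11.47 and 11.97 in adipose tissue (1.55, SE 0.17, adjusted p = 1.27e-07). Its carriers Igfals and Igfbp2 differed by 3.29 and 5.58. Igf2, the fetal growth factor, was lower in liver (-4.39), at 5.04, 5.96 and 6.71 in liver and 9.38, 10.29 and 11.07 in adipose tissue. Of 23 iron and haem genes 13 were higher and 3 lower in liver (median 0.49, -0.37 to 0.79 over the scalings). Tfr2, a sensor of iron-loaded transferrin, and Slc40a1, the iron exporter ferroportin, differed by 6.49 and 3.84, and Heph, a ferroxidase that works with ferroportin, was at least 9.11-fold higher in adipose tissue.

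**Figure D2:**
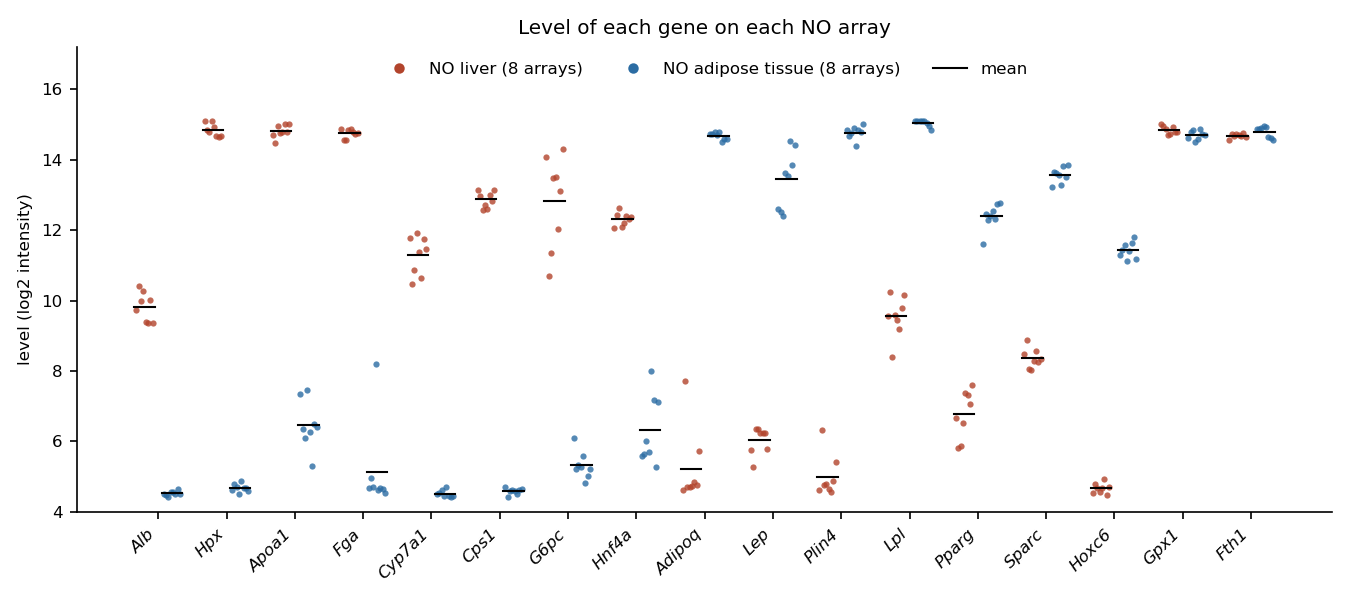
Level (log2 intensity, vertical axis) of 17 genes on each array, with NO liver left of NO adipose tissue for each gene, points for arrays and bars for the mean of 8. The 8 genes at the left were high in liver, the next 7 in adipose tissue, and Gpx1 and Fth1 lay near the highest value, 15.09, in both.

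The genes furthest toward adipose tissue included adipocyte genes of the lipid droplet. Plin4, a coat protein of the droplet, had levels of 4.57, 4.77 and 6.32 in liver and 14.38, 14.81 and 15.00 in adipose tissue (-9.77, SE 0.21, adjusted p = 4.00e-18). Aoc3, an amine oxidase on the surface of adipocytes and vascular cells, was at least 315-fold higher in adipose tissue, Adig, adipogenin, at least 84.1-fold, Rbp7, a retinol-binding protein of adipose tissue, at least 127-fold and Sncg, gamma-synuclein, at least 119.7-fold. Rgcc, a cell cycle regulator of endothelium, was at least 174-fold higher, Slc1a3, a glutamate transporter, at least 123-fold and Chst1, a sulfotransferase of keratan chains, at least 86.8-fold. On the liver arrays these 7 bounded genes stayed at or below 6.12, and none was detected there.

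Of 22 genes of lipolysis and the lipid droplet, 18 were lower in liver, all 18 by treat, and 3 were higher (median -4.14, -3.24 with bounds). Lipe, hormone-sensitive lipase, had levels of 4.44, 4.70 and 4.80 in liver and 10.23, 10.71 and 11.22 in adipose tissue and was at least 20.8-fold higher in adipose tissue (adjusted p = 3.28e-18). Plin1, the perilipin that guards the droplet against lipases, was at least 11-fold higher. Pnpla2, the lipase that takes the first fatty acid from triglyceride, was measured on all 16 arrays, at 10.15, 10.34 and 10.82 in liver and 14.58, 14.79 and 14.97 in adipose tissue (-4.42, SE 0.10). Cidec, which fuses droplets, was detected among the livers on array 2 only and differed by -9.36 (at least 235-fold higher in adipose tissue without that array), and Cav1, the main protein of caveolae, by -7.45. Plin2, the coat protein of small droplets in most cells, had levels of 9.83, 10.09 and 10.64 in liver and 9.55, 10.29 and 10.86 in adipose tissue, a difference of -0.13 (95% confidence interval -0.53 to 0.27). In the authors' processed values Plin2 was called lower in liver (-1.19, adjusted p = 1.71e-06).

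Of 12 adipokine genes, 7 were lower and 3 higher in liver (median -1.36, -1.23 with bounds). Lep had levels of 5.28, 6.24 and 6.36 in liver and 12.41, 13.57 and 14.54 in adipose tissue (-7.40, SE 0.30, adjusted p = 8.83e-14), and Retn, resistin, was at least 2.23-fold higher in adipose tissue. Angptl4, an inhibitor of lipoprotein lipase made in fasting, differed by -3.54, with liver at 9.39, 10.25 and 11.08 and adipose tissue at 12.77, 13.93 and 14.22. Serpina12, described as the adipokine vaspin, went the other way in these mice: its levels were 8.25, 10.84 and 11.87 in liver and 4.55, 4.62 and 4.77 in adipose tissue, at least 38.8-fold higher in liver (adjusted p = 6.57e-11), with detection on no adipose array. Rarres2, chemerin, had levels of 12.33, 12.81 and 13.32 in liver and 12.23, 12.71 and 13.33 in adipose tissue and a difference of 0.05 (95% confidence interval -0.33 to 0.43).

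Of 17 adipogenic transcription factors 12 were lower and 1 higher in liver (median -0.94, -0.81 with bounds). Pparg, the master regulator of adipocytes, had levels of 5.82, 6.86 and 7.60 in liver and 11.61, 12.43 and 12.77 in adipose tissue (-5.61, SE 0.25, adjusted p = 3.77e-13), and was detected on 6 livers. Ebf1, an early adipogenic factor, was at least 4.34-fold higher in adipose tissue. Factors that both tissues use differed less: Cebpa by -0.80 (adjusted p = 0.00755) and Srebf1, the lipogenic SREBP, by -0.90 (adjusted p = 0.00968), both with overlapping groups, and Srebf1 was no longer called against the 3 adipose arrays of 1 chip (adjusted p = 0.109). Klf15, a factor of fasting metabolism, was the 1 member higher in liver (1.94, SE 0.20, adjusted p = 6.50e-08), and was no longer called in the authors' processed values (0.12, adjusted p = 0.267).

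The lipid synthesis list ran in both directions. Of 29 genes of triglyceride and fatty acid synthesis 17 were lower and 8 higher in liver (median -0.85). Acaca, acetyl-CoA carboxylase 1, had levels of 10.13, 10.41 and 11.64 in liver and 12.99, 13.63 and 14.18 in adipose tissue (-3.04, SE 0.23, adjusted p = 1.11e-09), and Dgat1, which makes triglyceride, differed by -3.58. Fasn, fatty acid synthase, was detected among the livers on array 5 only, at 8.12, and differed by -2.45 (SE 0.57, adjusted p = 8.24e-04). Against the 3 adipose arrays of 1 chip alone its difference was -1.34 (adjusted p = 0.139). Mogat1, which acylates monoacylglycerol, was at least 5.09-fold higher in adipose tissue. The genes that were higher in liver included those of long polyunsaturated fatty acids: Elovl2 was at least 31.6-fold higher and Fads2, the delta-6 desaturase, differed by 4.39.

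Fatty acid uptake was evenly split, 9 of 20 genes higher and 9 lower (median 0.18, -0.65 to 0.51 over the scalings and -0.03 to 0.32 when each array was left out in turn). Lpl, lipoprotein lipase, had levels of 8.41, 9.58 and 10.24 in liver and 14.84, 15.09 and 15.09 in adipose tissue (-5.48, SE 0.20, adjusted p = 1.27e-14). Its probe was the brightest of all on 5 of the 8 adipose arrays, where quantile normalization sets the same top value for every array, so that this difference is limited by that value. Fabp4, the fatty acid carrier of adipocytes, was at least 30.4-fold and Cd36, a surface fatty acid receptor, at least 7.38-fold higher in adipose tissue. Slc27a2, an acyl-CoA ligase of very long chains, differed by 7.49. The liver carrier Fabp1 was detected on no array of either tissue by its probe, and so gives no comparison.

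Of 16 insulin signalling genes 8 were lower and 2 higher in liver (median -0.45). Irs3, a substrate of the insulin receptor found in rodent adipocytes, was at least 7.15-fold higher in adipose tissue, and Akt2, the kinase that moves glucose transporters, at least 1.91-fold. Grb14, an inhibitor of the receptor, was higher in liver (2.44, SE 0.33, adjusted p = 2.31e-06). Genes of brown and beige fat did not form 1 group, with 6 of 11 lower and 4 higher in liver (median -2.08, -0.67 with bounds). Cox8b, a muscle and brown fat form of a cytochrome oxidase subunit, was at least 33.7-fold and Cidea, a droplet protein, at least 10.9-fold higher in adipose tissue. The 4 that were higher in liver included Ppara, Elovl3 and Slc27a2, which hepatocytes use. Ucp1, the uncoupling protein itself, had levels of 4.54 to 5.76 in liver, with no detection, and 4.80 to 6.82 in adipose tissue, with detection on 6 arrays, and did not enter the fit.

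Matrix genes were mostly lower in liver. Of 32 matrix glycoproteins and proteoglycans 29 were lower in liver, 25 by treat, and 1 was higher (median -3.65, -2.68 with bounds). The array held 40, and 13 of the 32 tested were detected on every adipose and no liver array. Sparc, a collagen-binding matrix protein, was measured on all arrays, at 8.03, 8.32 and 8.89 in liver and 13.23, 13.59 and 13.84 in adipose tissue (-5.20, SE 0.13, adjusted p = 6.13e-17). Ogn, a small proteoglycan, and Thbs2, a thrombospondin, were at least 26.9-fold and 21.9-fold higher in adipose tissue. Vtn, vitronectin, which hepatocytes secrete into plasma, was the 1 that was higher in liver (6.22, SE 0.17). Of 14 collagen chains 12 were lower and 1 higher in liver (median -2.94, -1.78 with bounds). Col6a1, Col3a1 and Col4a1, chains of microfibrillar, fibrillar and basement membrane collagen, differed by -5.38, -4.91 and -4.68, and Col1a1 was at least 2.56-fold higher in adipose tissue. Col18a1, the source of endostatin, ran the other way (1.41, SE 0.11, adjusted p = 1.18e-09), at 12.69, 12.99 and 13.31 in liver and 11.37, 11.56 and 11.92 in adipose tissue.

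Markers of other cell classes of the pad were mostly lower in liver too. Of 15 fibroblast and progenitor genes 12 were lower in liver (median -3.26, -2.43 with bounds), with Gsn, gelsolin, at least 36.9-fold higher in adipose tissue and Dpt, dermatopontin, differing by -5.33. Of 12 smooth muscle and pericyte genes all 12 were lower (median -2.50, -2.33 with bounds), among them Acta2, smooth muscle actin, by -5.87, Tpm2, a tropomyosin, by -4.84 and Myh11, the smooth muscle myosin, by -4.84. Of 11 mesothelial genes 9 were lower and 2 higher (median -2.12, -1.04 with bounds), with Wt1 differing by -3.79 and Upk1b, a uroplakin, at least 4.7-fold higher in adipose tissue, while the keratins that hepatocytes share with mesothelium were higher in liver, Krt18 by 4.57. Krt8, its partner, had levels of 11.46 to 12.03 in liver, and in adipose tissue of 9.94, 9.88, 9.46, 8.32 and 9.75 on arrays 4 to 8, which shared a chip, and of 6.45 to 6.85 on arrays 1 to 3.

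Vascular endothelial genes were mostly lower in liver, and sinusoidal ones ran in both directions. Of 19 vascular endothelial genes 18 were lower and 1 higher in liver (median -3.02, -2.67 with bounds). Pecam1, a junction protein, had levels of 5.27, 6.58 and 6.94 in liver and 9.39, 9.69 and 10.30 in adipose tissue (-3.35, SE 0.22, adjusted p = 1.20e-10), Emcn, endomucin, and Vwf differed by -4.26 and -3.66, and Cdh5, VE-cadherin, was at least 4.57-fold higher in adipose tissue. Kdr, the VEGF receptor, was the exception, with levels of 5.54, 6.00 and 6.57 in liver and 5.14, 5.53 and 5.98 in adipose tissue, close to the detection limit (0.44, adjusted p = 0.0152), and its difference became -0.40 in the authors' processed values. Of 10 genes of liver sinusoidal endothelium 6 were higher and 4 lower (median 1.29, -0.22 to 1.33 over the scalings). Clec4g, a lectin of sinusoids, was at least 74.8-fold higher in liver and Stab2, a scavenger receptor for hyaluronan, differed by 3.64, whereas Lyve1, shared with lymphatic vessels, was lower in liver (-3.02), at 4.65, 4.87 and 6.67 in liver and 6.42, 8.72 and 9.17 in adipose tissue.

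General macrophage genes were lower in liver, and Kupffer cell genes ran in both directions. All 15 macrophage genes tested were lower in liver, 8 by treat (median -1.66, -1.54 with bounds). Adgre1, the antigen F4/80 that Kupffer cells also carry, had levels of 7.59, 7.85 and 8.14 in liver and 8.56, 9.12 and 9.86 in adipose tissue (-1.26, SE 0.17, adjusted p = 2.24e-06). Trem2, a receptor of lipid-handling macrophages, was at least 7.45-fold higher in adipose tissue and Lyz2, lysozyme, differed by -2.90. Of 9 Kupffer cell genes 6 were higher and 2 lower (median 1.25, -0.23 to 1.29 over the scalings), with Clec4f, a lectin of Kupffer cells, at least 15.2-fold higher in liver and Vsig4, a complement receptor, differing by 2.83. The lowest difference of a member was -1.98. In the authors' processed values 4 of the 9 were higher and 5 lower, and in those values centred on their median 6 and 2. Of 17 antigen presentation genes 10 were lower and 2 higher (median -0.58). The class II genes H2-Aa and Cd74 differed by -2.81 and -2.79, although H2-Aa overlapped and was no longer called against the 3 adipose arrays of 1 chip (-1.56, adjusted p = 0.12), and H2-Q10, a secreted class I molecule of liver, was at least 9.76-fold higher in liver.

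Few markers of blood, muscle or gland tissue were measurable. Of 19 lymphocyte genes 1, Ccl5, passed the filter on detection, of 15 pancreatic acinar genes 2, of 14 skeletal muscle genes 3, and of 7 red cell genes 5, 2 of them lower in liver and 3 not called. Of 19 epididymis and testis genes 2 passed, Spink2, which was lower in liver, and Cst11, which was not called. Of 8 bile duct genes 3 passed and all 3 were lower in liver, and of 10 stellate cell genes 6 passed, 3 higher and 3 lower. The medians of the epididymis and testis, bile duct and stellate cell lists changed sign with the scaling.

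Genes of positional identity that passed the filter on detection mostly differed between the tissues. Homeobox genes of the Hox clusters record where along the body a cell arose and stay on in the mesenchyme of adult fat. Of 22 positional factors 18 were lower in liver, 16 by treat, and 2 were higher (median -2.33, -2.08 with bounds). The array held 46, and 11 of the 22 tested were detected on every adipose and no liver array. The filter on detection thus favours members that differ. Hoxc6 had levels of 4.49, 4.68 and 4.94 in liver and 11.12, 11.42 and 11.80 in adipose tissue and was at least 34-fold higher in adipose tissue (adjusted p = 5.31e-20). Hoxa7, Hoxd4 and Hoxc9 were at least 11-fold, 8.07-fold and 7.78-fold higher, with no liver array detecting any of the 4. Hhex, a homeobox factor of the liver bud, was higher in liver (3.14, SE 0.26, adjusted p = 3.35e-09), at 9.94, 11.36 and 11.67 in liver and 7.05, 8.26 and 8.37 in adipose tissue. The cytoskeleton and adhesion list, 25 genes, had 21 lower and 2 higher in liver (median -1.86, -1.64 with bounds). Lgals1, galectin 1, was the largest difference toward adipose tissue of any gene detected on all 16 arrays, at 6.36, 6.89 and 8.36 in liver and 13.43, 14.01 and 14.34 in adipose tissue (-6.82, SE 0.28). Vim, vimentin of mesenchymal cells, differed by -6.18 and was detected among the livers on array 2 only. Without that array it was at least 33.4-fold higher in adipose tissue. Anxa2, an annexin, differed by -5.09, and Cdh1, the cadherin of epithelia, by 3.71 (4.11 without adipose array 4, which held the highest adipose level, 9.23).

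**Figure D3:**
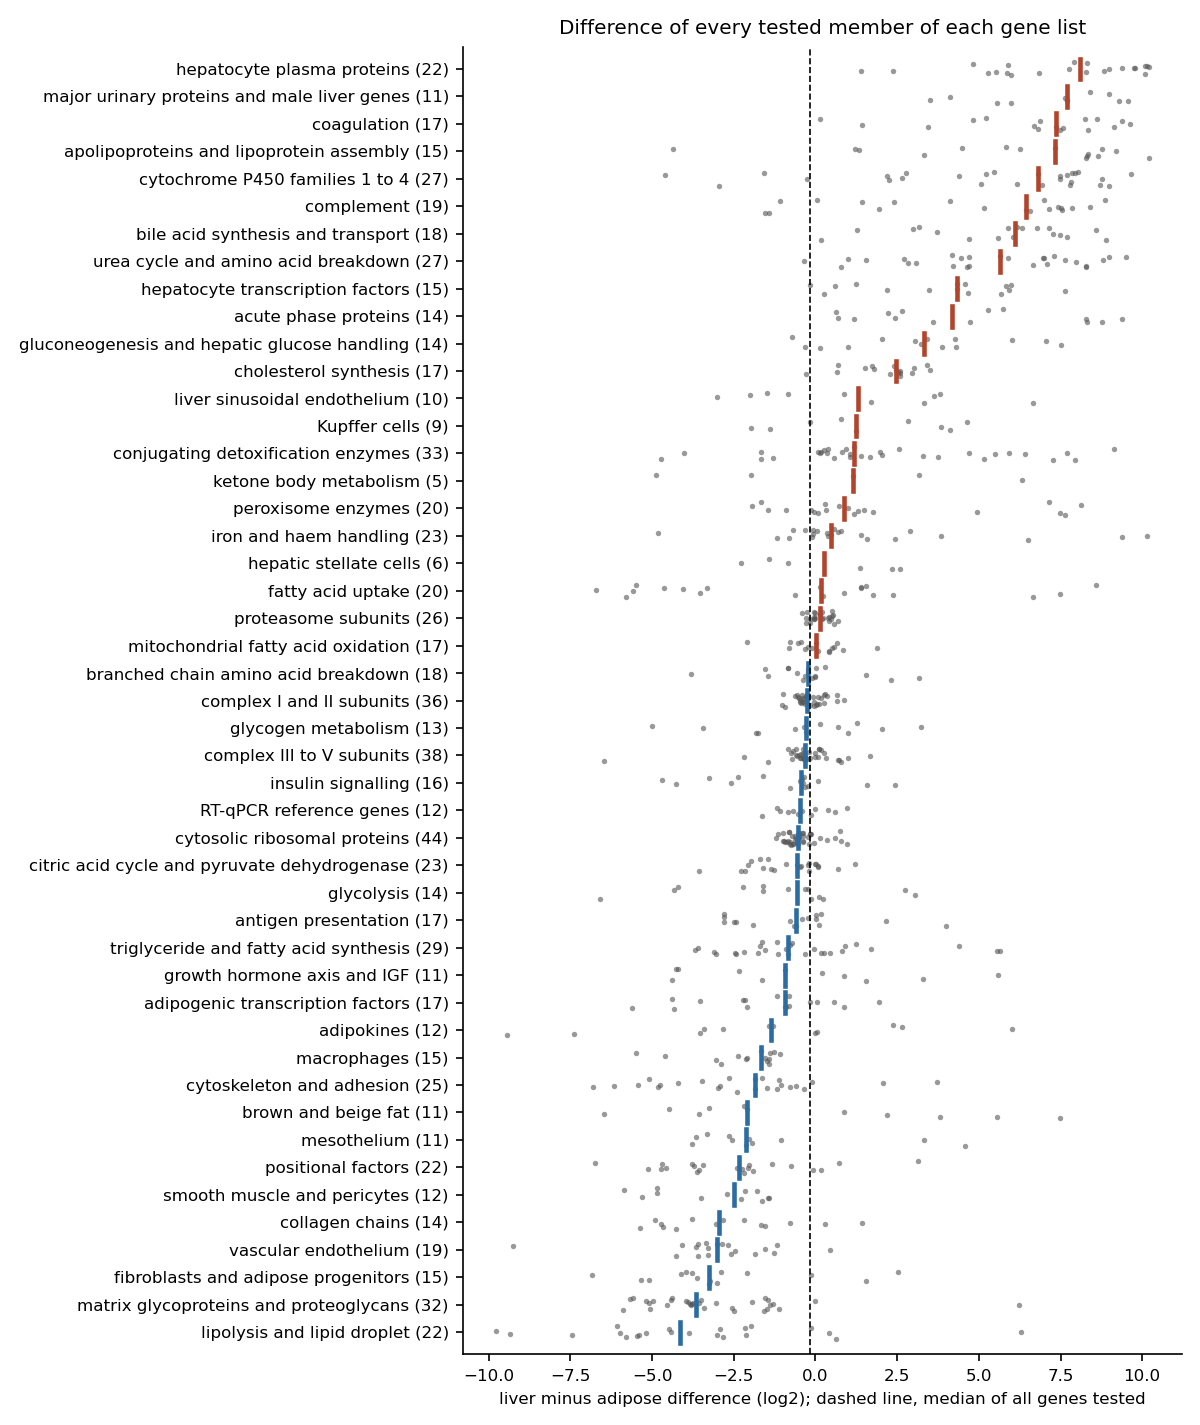
Liver minus adipose difference (log2, horizontal axis) of every tested member (points) of 47 of the 53 gene lists, with the number tested in brackets and a bar at the median of the list (red above 0, blue below 0). The lists of lymphocytes, skeletal muscle, epididymis and testis, pancreatic acinar cells, cholangiocytes and red blood cells, with 1 to 5 tested members each, are not drawn. Among those drawn, plasma proteins had the highest median, 8.10, and lipolysis and lipid droplet genes the lowest, -4.14, against -0.17 for all genes (dashed line), and medians near 0 changed sign with the scaling.

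Many metabolic steps are served by paired genes, often 1 typical of liver and 1 of fat, muscle or another tissue. Of 24 such pairs, chosen with earlier results of these data known, 11 had both genes tested. In 8 of the 11 the first gene was higher and the second lower in liver, where 31.1% of all tested genes were higher and 43.4% lower. The choice of pairs favours such splits, so this count carries no test. The glucose transporters were Slc2a2 (GLUT2), at 8.23, 10.65 and 11.60 in liver and 4.42, 4.53 and 4.69 in adipose tissue, and the insulin-responsive Slc2a4 (GLUT4), at 4.54, 4.61 and 5.19 in liver and 8.62, 8.98 and 9.27 in adipose tissue. Slc2a2 was at least 36.5-fold higher in liver and Slc2a4 at least 6.2-fold higher in adipose tissue, with no array of the other tissue detecting either. The glycerol channels behaved alike: Aqp9, through which liver takes up glycerol, differed by 6.65 (SE 0.58, adjusted p = 6.84e-09), and Aqp7, through which adipocytes release it, was at least 17.8-fold higher in adipose tissue. The adipose levels of Aqp9 ran from 4.70 to 9.84, the highest on array 4, and its difference was 7.17 without that array.

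Pyruvate kinase was split into Pklr (at least 4.91-fold higher in liver) and Pkm (-4.21), and the peroxisome proliferator receptors into Ppara (at least 3.39-fold higher in liver), the regulator of fatty acid oxidation, and Pparg. The CIDE droplet proteins were split into Cideb (6.30), which lipidates VLDL, and Cidec, the fatty acid transport proteins into Slc27a5 and Slc27a1 (at least 21.3-fold higher in adipose tissue), and the retinal dehydrogenases into Aldh1a1 (2.29) and Aldh1a3 (at least 1.21-fold higher in adipose tissue). In the authors' values centred on their median Aldh1a3 was no longer called (-0.03, adjusted p = 0.764). The cytochrome oxidase subunits Cox7a2 and Cox7a1 differed by 0.99 and -2.18, and Cox7a2 became -0.34 in the authors' processed values. In the other 3 pairs the first gene was not called higher in liver. Both transaminases of branched chain amino acids were lower in liver, Bcat1 by 0.83 and Bcat2 by 3.82 on the log2 scale (Bcat1 became 0.14 in the authors' values centred on their median), as were both stearoyl-CoA desaturases, Scd1 by 1.55 on the log2 scale and Scd2 by at least 2.25-fold. Against the 3 adipose arrays of 1 chip alone, Scd2 was no longer called (adjusted p = 0.165). Pygl, named the liver glycogen phosphorylase, had levels of 12.64, 13.01 and 13.11 in liver and 12.37, 12.82 and 13.14 in adipose tissue (0.15, 95% confidence interval -0.11 to 0.41), while Pygb, the brain form, differed by -5.01. The direction of Pygl changed with the processing: it was -0.27 in the authors' processed values, but 0.89 in those values centred on their median and 0.49 with the mean of the kept probes (adjusted p = 0.00295), under both of which it was called higher in liver.

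**Figure D4:**
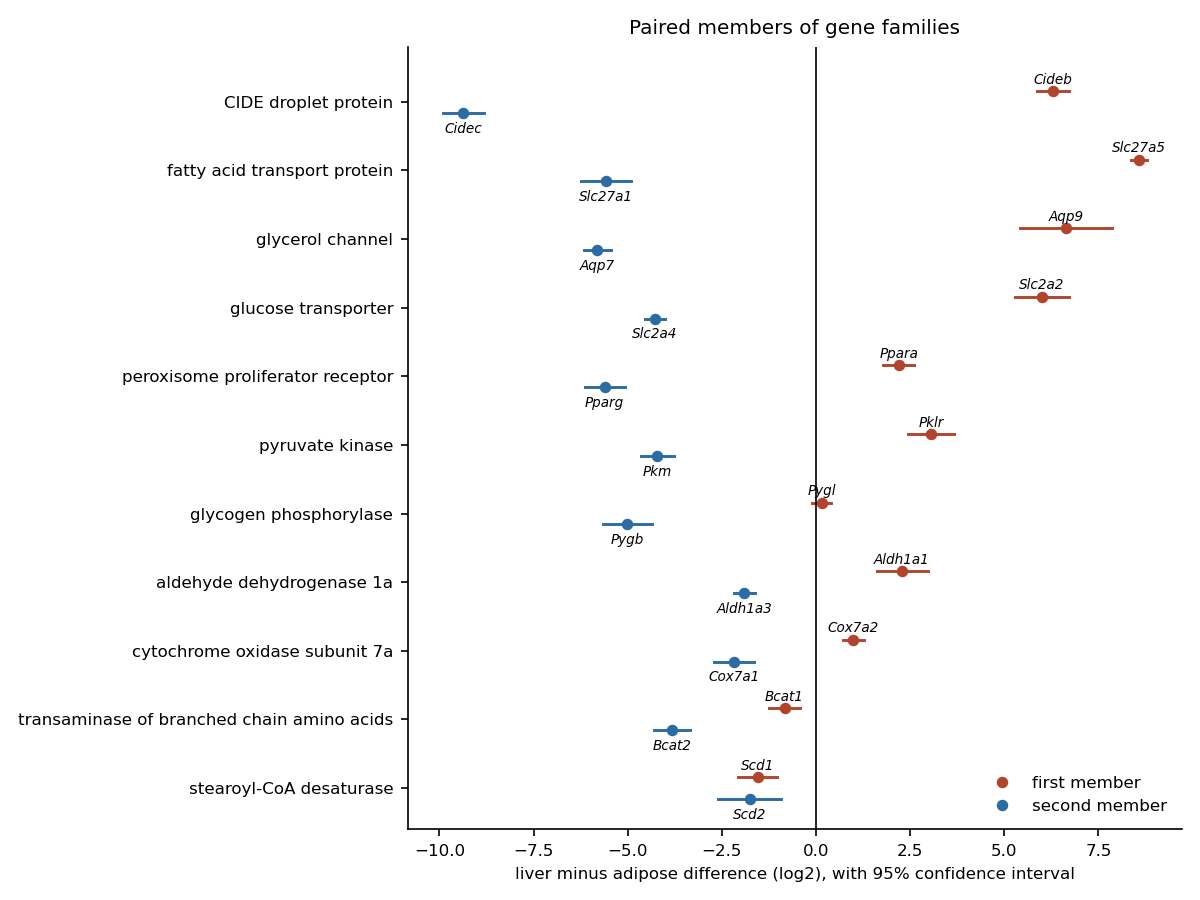
Liver minus adipose difference (log2, horizontal axis) of both genes of the 11 pairs, with points for the estimate and lines for the 95% confidence interval, the first member in red and the second in blue. In 8 pairs the points lie on opposite sides of 0 with both genes called, Pygl lies near 0, and fitted values of genes with no detection in 1 tissue are shown as fitted.

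Central energy metabolism gave medians nearer 0, with a few single genes apart. Of 36 subunits of complexes I and II, 19 were lower, 6 higher and none called by treat (median -0.27, -0.90 to 0.25 over the scalings). Of 38 subunits of complexes III to V, 22 were lower and 6 higher (median -0.34, -0.74 to 0.41 over the scalings), and 4 passed treat. These were Atp5g1 (1.67), a ring subunit of ATP synthase, higher in liver, and Cox8a (-1.45), Cox8b and Cox7a1, lower. Mitochondrial fatty acid oxidation had 7 of 17 higher and 5 lower (median 0.01, -0.73 to 0.42 over the scalings), with Acaa2, the last thiolase step, at 1.88 and Cpt1b, the muscle and fat form of the entry enzyme, at least 1.59-fold higher in adipose tissue. Its liver partner Cpt1a was detected on no array by its probe.

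Of 23 genes of the citric acid cycle and pyruvate dehydrogenase, 14 were lower in liver, 9 by treat, and 2 were higher (median -0.55, -0.48 with bounds). The median ran from -1.375 to -0.22 over the scalings, and from -0.38 to -0.34 relative to the median of all genes. Pdha1, the catalytic subunit of pyruvate dehydrogenase, had levels of 9.80, 10.24 and 10.59 in liver and 11.87, 12.49 and 12.96 in adipose tissue (-2.14, SE 0.16, adjusted p = 8.57e-10), and Cs, citrate synthase, differed by -2.07. Pdk4, the kinase that switches pyruvate dehydrogenase off, also differed by -3.55. Suclg2, a subunit of succinyl-CoA ligase, was 1 of the 2 that were higher (1.20), and in the authors' processed values it was no longer called (0.12, adjusted p = 0.245) and 0 genes of the list were higher. Of 14 glycolysis genes 7 were lower and 3 higher (median -0.57, -0.27 with bounds and -1.09 to 0.06 over the scalings). Hk2, the insulin-regulated hexokinase, had levels of 5.47, 5.88 and 6.56 in liver and 12.14, 12.47 and 13.11 in adipose tissue (-6.60, SE 0.18, adjusted p = 1.49e-16), Aldoa, aldolase A, differed by -4.32 and Aldoc, aldolase C, by 2.75. Glycogen genes had 5 of 13 higher and 6 lower (median -0.28, -0.03 with bounds and -0.59 to 0.57 over the scalings), and branched chain amino acid breakdown 4 of 18 higher and 7 lower (median -0.23, -1.06 to 0.09 over the scalings), with Abat, a GABA and valine pathway transaminase, at 3.18.

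Ribosomal protein genes showed many small differences. Of 44 tested 34 were lower and 4 higher in liver, and 1 passed treat (median -0.54, -0.98 to 0.18 over the scalings). Rps19 was that gene, at 12.84, 13.02 and 13.25 in liver and 14.10, 14.19 and 14.42 in adipose tissue (-1.22, SE 0.09), and Rpl31 differed by -1.14, a call that was lost with the mean of the kept probes (-0.20, adjusted p = 0.102). Rpl4 ran the other way (0.74), which became -0.51 in the authors' processed values. Of 26 proteasome subunits 10 were higher, 2 lower and none called by treat (median 0.14, -0.71 to 0.44 over the scalings), Psmd6 having the largest difference (0.68, and -0.54 in the authors' processed values). These medians were smaller than the shift of all genes between scalings, so that no direction can be read from them.

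Several common RT-qPCR reference genes differed between the tissues. Of 12 tested 7 were lower and 2 higher in liver, together a share close to the 74.5% called among all genes, and 1, Tuba1b, passed treat (median -0.48, -1.14 to 0.01 over the scalings). Actb, cytoplasmic actin, had levels of 12.00, 13.05 and 13.45 in liver and 13.62, 14.08 and 14.35 in adipose tissue, with no overlap, and a difference of -1.17 (SE 0.22, adjusted p = 1.30e-04) that became 0.84 when its probes were averaged. Tuba1b differed by -1.64, Hprt by -1.08, Ywhaz by -0.83, Eef1a1 by -0.69 and Gusb by -0.54, and B2m by -0.41, which became 0.57 in the authors' values centred on their median. Rpl13a and Rplp0 differed by 0.98 and 0.60, which became -0.28 and -0.60 in the authors' processed values. Gapdh, Tbp and Tfrc were not called, with differences of -0.13, -0.03 and 0.38 and 95% confidence intervals of -0.45 to 0.18, -0.40 to 0.34 and -0.08 to 0.84. In the authors' values centred on their median Gapdh and Tbp became 0.75 and 0.32, and in the processed values Tfrc became -0.83.

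**Figure D5:**
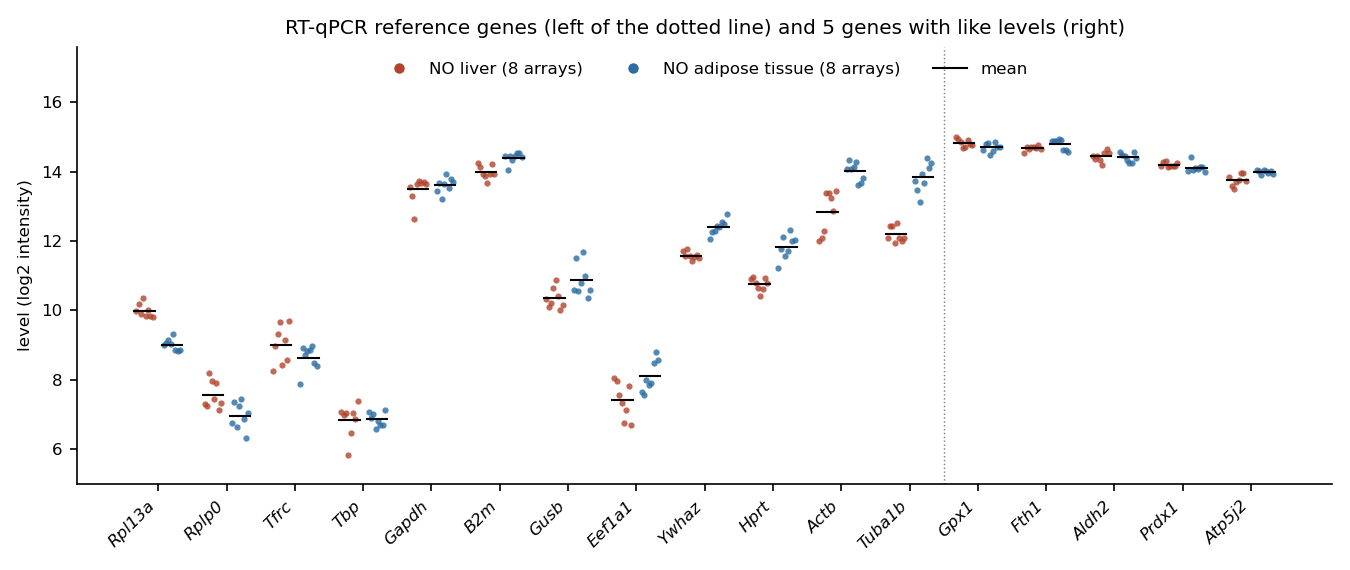
Level (log2 intensity, vertical axis) of the 12 RT-qPCR reference genes (left of the dotted line) and of 5 genes with like levels (right) on each array, with NO liver left of NO adipose tissue, points for arrays and bars for the mean of 8. Actb and Hprt did not overlap between the tissues, and Gapdh and Tbp did.

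Genes with a like level in both tissues under this normalization were sought by interval rather than by a missed threshold. Of 4875 genes detected on all 16 arrays, 967 (19.8%) had a 95% confidence interval of the difference within 0.5 of 0 on either side, and 2671 (54.8%) within 1. The 5 with the highest signal were Gpx1, glutathione peroxidase, Fth1, the ferritin heavy chain, Aldh2, which clears acetaldehyde, Prdx1, a peroxiredoxin, and Atp5j2, a subunit of ATP synthase. Gpx1 had levels of 14.69, 14.83 and 15.00 in liver and 14.49, 14.72 and 14.86 in adipose tissue (interval -0.04 to 0.31), and Prdx1 of 14.14, 14.18 and 14.32 in liver and 14.00, 14.08 and 14.43 in adipose tissue (interval -0.08 to 0.26). The intervals of Fth1, Aldh2 and Atp5j2 were -0.28 to 0.07, -0.16 to 0.22 and -0.43 to -0.06. The lowest level of the 5 on any array was 13.49 (Atp5j2), against 15.09 for the highest value of any array. Their like levels depended on the scaling: in the authors' values centred on their median the differences were 1.20 for Gpx1, 0.95 for Fth1, 1.06 for Aldh2, 1.07 for Prdx1 and 0.69 for Atp5j2, all beyond the margin of 0.5. With the mean of the kept probes Prdx1 differed by 0.94 (adjusted p = 4.77e-08).

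For 1820 genes more than 1 probe passed the filter. By treat, all probes were higher in liver for 187 of these genes, all lower for 230, and at least 1 higher and 1 lower for 2. Those were Hsd3b2, a steroid dehydrogenase of a family of close copies, whose probes differed by 5.02 (SE 0.25) and -1.80 (SE 0.13), and Tubb2b, a beta tubulin, whose probes differed by 2.07 (SE 0.19) and -3.33 (SE 0.18). No single direction is given for either. Spread within a tissue was close in both: over the 4875 genes detected on all arrays the median SD was 0.265 in liver and 0.243 in adipose tissue, and 2765 of them had the larger SD in liver.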

How the data were processed

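RNA of whole liver and epididymal adipose tissue was measured on Illumina MouseRef-8 v2 bead arrays after amplification of 250 ng to biotin-labelled cRNA. The authors deposited an intensity and a detection p-value per probe and array, exported with GenomeStudio as given in the submitters' processing notes. The deposited intensity table was described as not normalized, but its values shared 1 distribution over all arrays. The authors' processed intensity values, also deposited and linear, shared 1 distribution within each tissue but not between tissues, and served as an alternative only. The number of arrays, not a read depth, limits the precision.

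Signals were background corrected, quantile normalized and log2 transformed with neqc (limma 3.58.1, R 4.3.3, offset 16). Of 25697 probes, 23978 carried 1 gene symbol in the platform annotation, 0 several and 1719 none. A probe was kept where its detection p was under 0.01 on at least 8 of the 16 arrays (10658 probes), and the brightest kept probe stood for its gene. Liver and adipose tissue were compared with lmFit and eBayes at a Benjamini-Hochberg adjusted p under 0.05 and with treat against a log2 difference of 1. The fit was tested on simulated data. Arrays are separate samples per the labels, and p-values measure only the spread between them. The alternatives were other background corrections, scalings, filters, probe summaries and variance models, chip or replicate number as a block, each adipose chip alone and each array left out.

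The members, the 53 gene lists and the gene pairs were chosen with earlier results of these data known. Genes were named by rule: Alb and Adipoq, the 10 largest differences in each direction detected on every array of the higher tissue, in each list up to 4 called members with the largest difference and up to 3 called against its majority, the paired genes, the RT-qPCR reference genes, the 5 brightest genes with like levels, genes with opposite probes, and members of small counts. Apoa1, Apoc3, Apoe, F8, Pros1, Saa1, Orm2, Hp, Serpina3n, Nr1h4, Mlxipl, Nr1h3, Cyp7a1, Ass1, Pck1, Cyp2e1, Retn, Rarres2, Cebpa, Srebf1, Lipe, Plin1, Pnpla2, Plin2, Fasn, Dgat1, Cd36, Col1a1, Sparc, Pecam1, Cdh5, Adgre1, Ucp1, Fabp1, Cpt1a and the epididymis genes were added for their role after their values were seen.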

Additional observations from a re-analysis of the deposited data

Results flagged for a closer look

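In a group of 8 arrays, a lone array was noted where its gap to the nearest other array, divided by the range of the group, exceeded Dixon's critical value at the level of 95%. Of 368 gene and tissue pairs examined, 33 had such an array. Chance marks about 1 in 20 groups of normally spread values. That rate need not hold here, since some groups, such as Adipoq in liver, had only 1 detected array and the genes share the same arrays. No explanation was tested.

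NO liver array 2 held 9 of them. It had the highest liver level of the adipose genes Adipoq (7.71), Cidec (6.58), Dpt (7.00), Wt1 (6.63) and Myh11 (6.26), and the lowest liver level of Kng1 (14.54), Slc2a2 (8.23), Cyp2c70 (13.57) and H2-Aa (4.65).

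NO liver array 5 had the highest liver level of Fasn (8.12, next 5.76) and the lowest of Mug1 (13.79) and Emcn (4.97), liver array 4 the lowest of Hamp (12.07) and liver array 3 the lowest of Gapdh (12.65).

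NO adipose array 4, the array with epididymis genes, had the highest adipose level of the liver genes Fga (8.20, next 4.97), Aqp9 (9.84, next 7.13) and Gnmt (6.02) and of the epithelial gene Cdh1 (9.23, next 6.99). NO adipose array 5 had the highest of Nr1h4 (6.68), Arg1 (6.68, the others at most 4.71) and Rpl4 (9.38) and the lowest of Pck1 (7.68) and Angptl4 (12.77). NO adipose array 1 had the highest of Pcx (10.75) and Plin1 (10.53) and the lowest of Pparg (11.61) and Lyve1 (6.42). NO adipose array 2 had the highest of Saa1 (5.46) and Prdx1 (14.43) and the lowest of H2-Aa (5.78) and B2m (14.05), and array 3 the highest of Ass1 (6.53) and the lowest of Cox7a1 (6.86).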

How the results depend on the processing

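The 16 arrays sat on different chips by tissue, detection stops near the lowest values and quantile normalization gives every array the same highest value, which limits fold changes at both ends. Pygb, Col3a1, Dpt, Pltp, Myh11 and Wt1 were detected among the livers on array 2 only. Without it they were at least 16.9, 15.1, 15.5, 13.5, 12.0 and 7.06-fold higher in adipose tissue. Cox7a1 and Bcat1, each without the 1 liver that detected it, were at least 3.49 and 1.29-fold higher there. Mup20, Tfr2, Saa1 and Stab2, each without the 1 adipose array that detected it, were at least 547, 67.5, 38.9 and 9.77-fold higher in liver. Leaving out each array in turn gave 5658 to 5881 genes called, 2363 to 2420 higher and 3283 to 3503 lower in liver, and by treat 909 to 943 higher and 1423 to 1475 lower. The deposited signal and quantile normalization without background correction each gave 838 genes lower by treat, against 1457. The authors' processed values gave 766 higher and 6456 lower, and 404 and 2900 by treat; centred on their median, 625 were lower by treat. With detection required on all 16 arrays, 3489 genes were called, 1805 of them lower, 419 higher and 450 lower by treat, and 71 of the named genes were called, fewer because fewer genes were tested. With treat in place of the test against 0, 2381 genes were called, 924 higher and 1457 lower. With a margin of 1, 2671 genes had like levels.

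Some single differences changed sign. In the authors' processed values F8 became -0.13, Pros1 -0.90, Mlxipl -0.69, Rarres2 -0.37, Kdr -0.40, Cox7a2 -0.34, Pygl -0.27, Rpl13a -0.28, Rpl4 -0.51, Psmd6 -0.54, Tfrc -0.83 and Rplp0 -0.60. In those values centred on their median Gstz1 became 0.47, Cyp2e1 0.81, Cyp2s1 0.059, Hmgcs1 0.70, Bcat1 0.14, Gapdh 0.75, Tbp 0.32, B2m 0.57, Fth1 0.95 and Atp5j2 0.69. With the mean of the kept probes Actb became 0.84, Hsd3b2 2.48 and Tubb2b -0.63. The cause was not tested. Calls were lost in the authors' processed values for Lcn2, Serpina3n (0.40), Klf15 (0.12) and Suclg2 (0.12), in those values centred on their median for Aldh1a3 (-0.03), Scd2 (-0.45), Actb (-0.34), Gusb (-0.35) and Eef1a1 (-0.30), and with the mean of the kept probes for Rpl31 (-0.20) and Gusb (-0.25). Lcn2 lost its call under 16 of the alternatives, some that leave out 1 array among them. Among genes that kept their sign, calls were gained in the authors' processed values for Pck1 (-1.42), Plin2 (-1.19), Nr1h3 (-1.09), Tbp (-0.84), Hmgcs1 (-0.46), Gapdh (-0.41), Cyp2e1 (-0.34) and Fth1 (-0.20). In those values centred on their median the same held for Mlxipl (0.46), Rarres2 (0.78), Pygl (0.89), Gpx1 (1.20), Aldh2 (1.06) and Prdx1 (1.07). With the mean of the kept probes it held for Pygl (0.49), Fth1 (-0.24) and Prdx1 (0.94). Cyp2e1 was called without liver array 7 (-0.31, adjusted p = 0.0435) and Tfrc without liver array 1 (0.49, adjusted p = 0.0447). Over the 53 lists, 18 medians changed sign under at least 1 scaling. Against the 3 adipose arrays of 1 chip 11 of the named genes lost their call, and 2, Pck1 (-0.98) and Nr1h3 (-0.44), gained a call. Against the 5 of the other chip 2 lost theirs.

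The labels do not say whether liver and adipose arrays of the same number came from 1 mouse, and they were not treated as paired. The correlation of their deviations from the tissue means ran from -0.03 to 0.26 over the 8 numbers and was over 0.1 for 4 of them, and 3 of the 8 liver arrays matched their own number best. As examples chosen after their values were seen, Psmd8 had levels of 8.84 and 8.41 on liver arrays 4 and 8 and 7.60 and 7.46 on adipose arrays 4 and 8, against 10.47 to 10.96 on the other 12 arrays, and Cish was highest on numbers 2, 3, 4 and 8 in both tissues. With the replicate number as a block, 5748 genes were called, 2411 higher and 3337 lower in liver, and 934 higher and 1451 lower by treat, and no named gene changed its call. With chip as a random block (consensus correlation 0.03), 5564 genes were called.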
